A study of Macaca fascicularis with 6 samples.

Results

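The genes described here are 7 members of the epidermal growth factor (EGF) system of the cynomolgus monkey lung: the 5 ligands HBEGF, EREG, AREG, TGFA and BTC and the 2 receptors EGFR and ERBB3. They were found by their symbols in the gene list of the deposited matrices, where each had a single row, and they make up 7 of 28623 genes. Single-cell RNA sequencing libraries (10x 3′ chemistry) were made from lung tissue of 6 male monkeys aged 3 to 5 years, 1 library per animal. The 3 control monkeys were healthy and received saline in place of the antigen at both steps. The 3 asthma monkeys had been sensitised with injections of an antigen of the roundworm Ascaris suum in adjuvant and then challenged with it through the nose, a model of allergic airway disease and not the human disease. The labels name no engineered allele. Replicate numbers are those of the labels, 1, 2 and 3 for control and 8, 10 and 11 for asthma.

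Ligands of the EGF family are made as precursors anchored in the cell membrane and are released by metalloproteases such as ADAM17. Once free, they bind EGFR on the same or on neighbouring cells, the receptors pair, and the signal runs through the RAS and ERK kinases to immediate-early genes. ERBB3 has little kinase activity of its own, binds neuregulins and signals by pairing with other receptors of the family, above all ERBB2. In the airway and the alveolus the system is known for epithelial repair, proliferation and mucus production. Transcript counts show where the ligands and receptors were transcribed, not how much ligand was released or bound.

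The 6 libraries held 35133 cell barcodes, and 24235 cells passed the quality filters. The kept cells carried 34526867, 24593874 and 27453752 unique molecular identifiers (UMIs, counted transcript molecules) in the 3 control libraries, in the order of their replicate numbers, and the asthma libraries carried 30173065, 32347260 and 25388639. All values below follow this order. The median cell had between 3835 and 5048.5 UMIs, and the median share of mitochondrial UMIs was between 5.14% and 6.61%. Pairs of libraries shared between 1 and 11 kept barcodes. Clustering was done without the EGF genes, meaning the members and the genes of the pathway lists described below, immediate-early genes among them. Clusters were named from marker genes, so that every cell type name below means cells with that marker profile. The names were rebuilt from the counts, not taken from the study, and are written as epithelial-like and so on in the plots. This gave 11 classes, of which the largest were T and NK cells (10139 cells), macrophages (3442), stromal cells (2308) and monocytes (1771), with 927 epithelial cells. A further 1880 cells lay in clusters with markers of several classes, called mixed here, and were left out of the levels, whereas unnamed sub-clusters of a single class were kept in its levels.

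Some groups rested on few cells or on few libraries. Of the 272 cells with the profile of alveolar type 1 (AT1) cells, the control libraries held only 18, 5 and 5, and mast cells numbered 3, 7 and 6 in control, so neither was tested. Alveolar macrophages in asthma replicate 10 numbered 4, and capillary endothelial cells 12, 13 and 11 in control against 188, 193 and 288 in asthma. Control replicate 1 stood apart among the macrophages: 519 of the 542 cells of 1 unnamed macrophage sub-cluster came from it, which was 52.7% of its macrophages. Sub-cluster names below are given by their leading gene where no fixed marker list named them.

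Across all kept cells HBEGF gave 32748 UMIs in 5614 cells, EREG 6214 in 1421 cells, AREG 2785 in 966 cells, BTC 545 in 407 cells and TGFA 190 in 173 cells. Of the receptors, ERBB3 gave 1815 UMIs in 965 cells and EGFR 1107 in 814 cells. Levels are given as CPM, the UMIs of a gene per 1000000 UMIs of the cell type in a library, and are compared for 1 gene across cell types, not between genes. Means and SDs are over the libraries with at least 10 cells of the type.

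**Figure D1:**
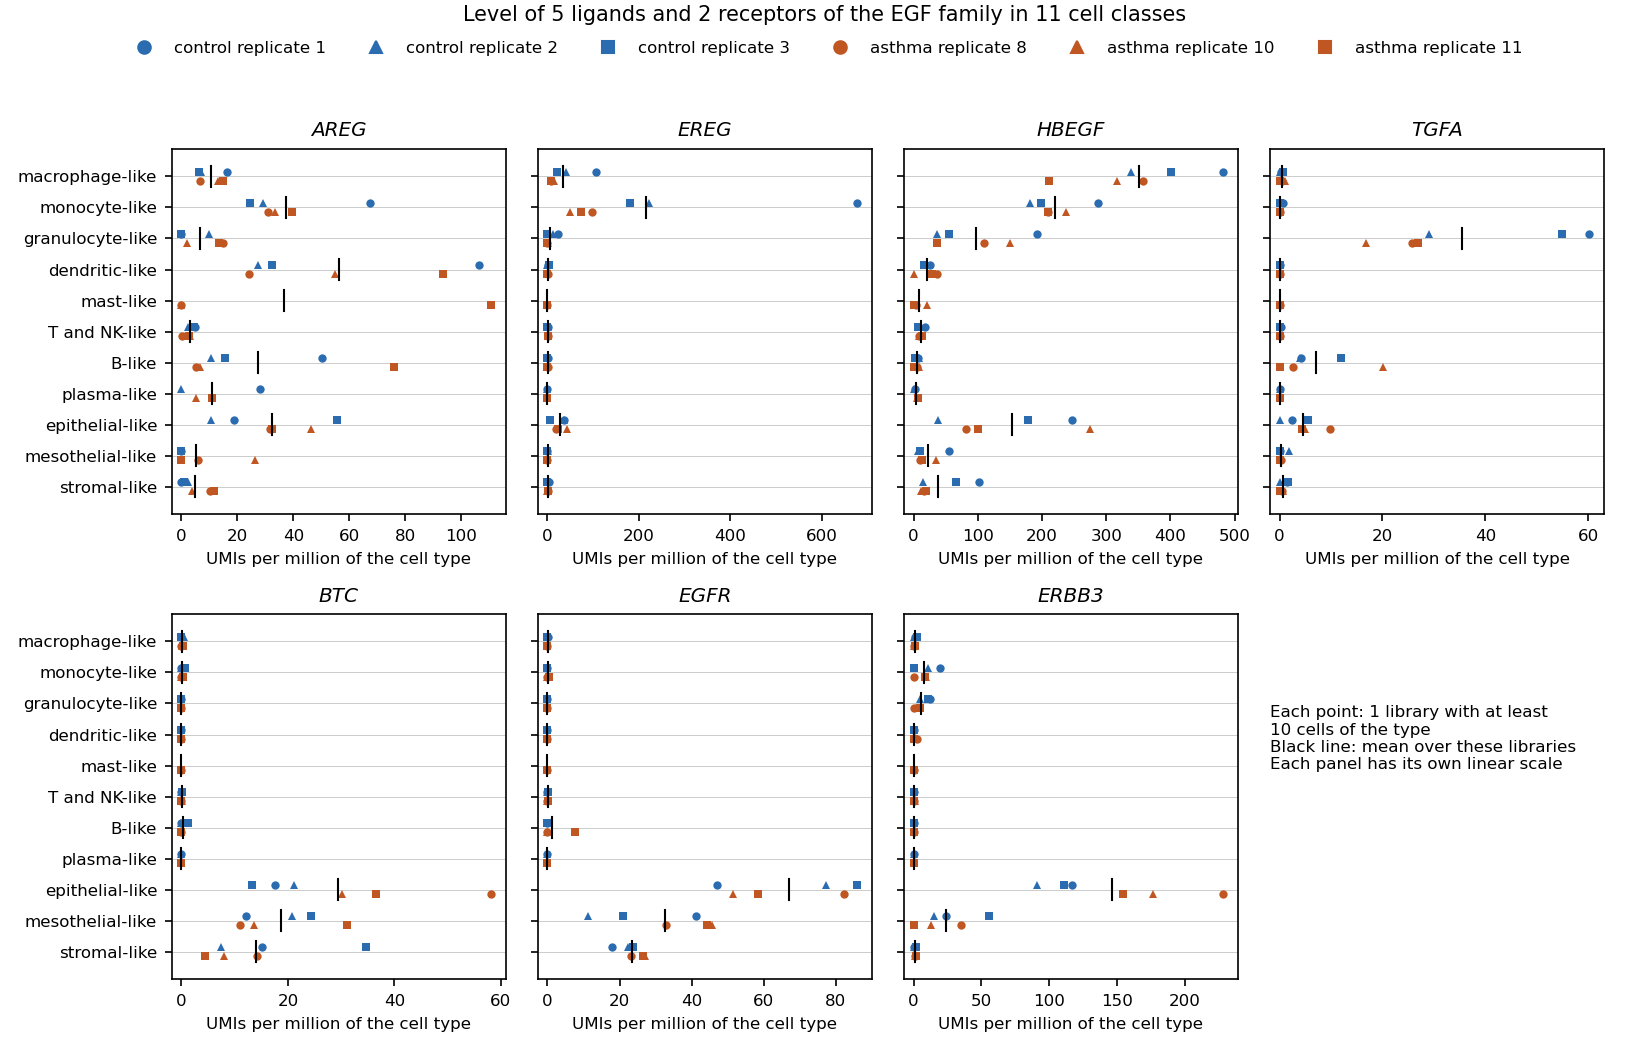
Level of each of the 7 genes (UMIs per 1000000 of the cell type, a linear scale of its own in each panel) in the 11 cell classes, with 1 point per library with at least 10 cells (control blue, asthma orange) and a black line at their mean. The highest class was the macrophage for HBEGF, the monocyte for EREG, the dendritic cell for AREG, the granulocyte for TGFA and the epithelial cell for BTC, EGFR and ERBB3.

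HBEGF, heparin-binding EGF-like growth factor, was highest in macrophages. Its level there was 481, 338 and 401 CPM in control against 357, 317 and 210 CPM in asthma (407 ± 71.7 against 295 ± 75.8, SD, n = 3 each). Monocytes came next, with 287, 181 and 199 CPM in control against 210, 238 and 210 CPM in asthma. The control libraries of the macrophages were above the highest monocyte library of 287 CPM, whereas asthma replicate 11 had 210 CPM in both classes, so the order of these neighbours did not hold in every animal. Epithelial cells followed with a wide spread of 246, 38.6 and 178 CPM in control against 82.2, 276 and 100 CPM in asthma. Granulocytes ranged from 35.9 to 192 CPM, which overlapped with the epithelial range, and T and NK cells lay at 7.27 to 17.6 CPM.

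Within the macrophages, a sub-cluster led by the water and glycerol channel gene AQP3 (460 cells) had high values, 597, 410 and 511 CPM in control against 532, 684 and 347 CPM in asthma. The sub-cluster made almost only of control replicate 1 cells had 565 CPM in that library, on 6321 UMIs. Its part in the HBEGF values of all macrophages was not tested. Alveolar macrophages, the resident cells of the airspaces, had 321, 380 and 414 CPM in control against 373 and 231 CPM in asthma replicates 8 and 11. HBEGF was seen in nearly every one of them, in 788 of 895 cells (88%) at a median of 25229 UMIs per cell, against 3.54% of T and NK cells at a median of 3658 UMIs. Interstitial macrophages, which lie in the tissue, had lower values, 277, 164 and 259 CPM in control against 152, 148 and 149 CPM in asthma. Of the monocytes, the classical type (914 cells) had 206 to 321 CPM and the nonclassical type (531 cells) 77.9 to 227 CPM, ranges that overlapped.

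In the epithelium, HBEGF values were spread widely between animals. Alveolar type 2 (AT2) cells, which make surfactant, had 290, 43.7 and 421 CPM in control against 44.2, 248 and 40.1 CPM in asthma. Club and secretory cells of the airway had 244 and 250 CPM in control replicates 1 and 3, against 438 and 170 CPM in asthma replicates 10 and 11, on either side of the control values. Basal cells, the stem cells of the airway, were lower, at 15.9 to 136 CPM. AT1 cells, the flat cells of gas exchange, had 125, 340 and 245 CPM in asthma. In AT2 cells the 20 measured immediate-early genes, of 21 in the list, summed to 5147, 1768 and 5226 CPM in control against 2941, 4705 and 2022 CPM in asthma, so the libraries with high HBEGF were those with high sums; the part of these genes in the HBEGF values was not tested.

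EREG, epiregulin, was highest in monocytes and had low values outside the myeloid and epithelial cells. In monocytes its level was 676, 222 and 181 CPM in control (1082, 629 and 275 UMIs) and 97.2, 48.7 and 73.5 CPM in asthma (107, 32 and 506 UMIs). Macrophages had 107, 40.6 and 20.4 CPM in control against 7.12, 13.8 and 8.25 CPM in asthma. In each of the 6 libraries the monocyte level was above the macrophage level. Epithelial cells had 37, 35.1 and 6.27 CPM in control against 18.1, 42.4 and 23.3 CPM in asthma, which overlapped with the macrophages. The mean was 6.33 CPM in granulocytes and 0.651 CPM in T and NK cells.

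Classical monocytes carried most of the monocyte signal. Their EREG level was 951, 322 and 216 CPM in control against 184, 69.8 and 127 CPM in asthma, and a UMI was seen in 83.9%, 54.6% and 30.2% of control cells and in 39.5%, 22% and 31.7% of asthma cells. Among T and NK cells, which should lack the gene, the share was 0.227% at a median depth of 3658 UMIs, against 7580 UMIs in the classical monocytes. Nonclassical monocytes had 164, 58.5 and 0 CPM in control against 7.08, 0 and 15.4 CPM in asthma. Another monocyte group, an unnamed sub-cluster of 326 cells led by the interferon-inducible gene IFI27, had 466, 204 and 139 CPM in control against 95, 90 and 67 CPM in asthma.

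Among macrophages, EREG in the AQP3-led sub-cluster was at 185, 72 and 70 CPM in control against 9, 30 and 6 CPM in asthma. The sub-cluster made almost only of control replicate 1 cells had EREG as a leading gene, at 132 CPM in that library, so that 1481 of the 1913 macrophage EREG UMIs of control replicate 1 came from it. Alveolar macrophages had 31, 43 and 17.8 CPM in control against 8.13 and 9.56 CPM in asthma replicates 8 and 11. Interstitial macrophages had 32.2, 6.11 and 2.8 CPM in control against 1.92 to 5.74 CPM in asthma. The groups did not overlap in alveolar macrophages, of which 2 asthma libraries could be measured, and overlapped in interstitial macrophages. Control replicate 1 was the highest library in monocytes, classical monocytes, macrophages, the AQP3-led sub-cluster and interstitial macrophages, and the part of its own sub-cluster in the macrophage value was not tested. In AT2 cells EREG stood the other way in value, at 28.1, 38.2 and 9.36 CPM in control against 32.6, 69.4 and 33.4 CPM in asthma, with overlapping groups. A UMI was seen in 40 of 357 AT2 cells, with up to 23 UMIs in 1 cell. The macrophage markers in AT2 cells, given below with AREG, summed higher in asthma, and their part in the EREG values was not tested.

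**Figure D2:**
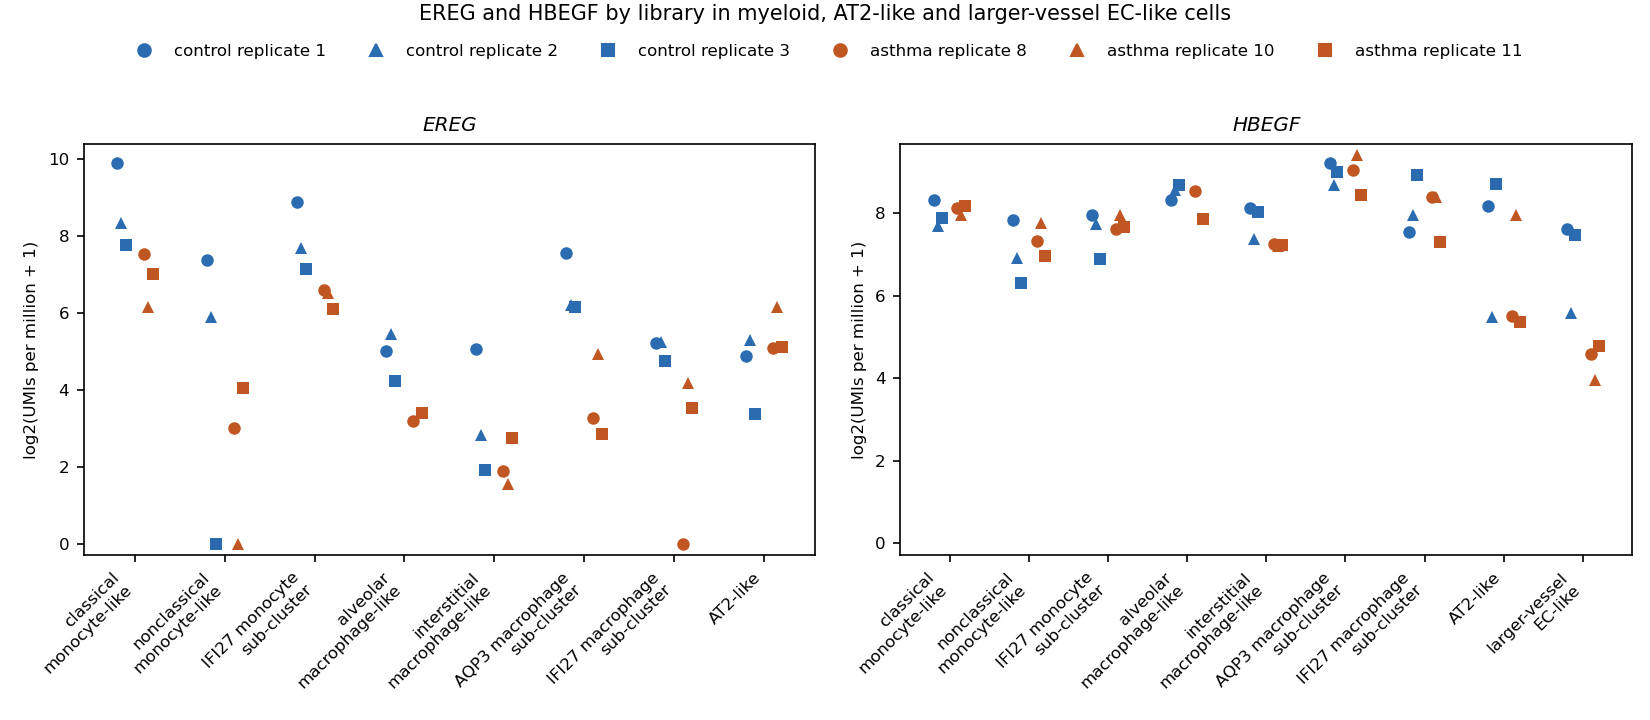
EREG and HBEGF in myeloid groups and AT2 cells, and HBEGF in larger-vessel endothelial cells, as log2(CPM + 1) with 1 point per library (control blue, asthma orange). EREG in classical monocytes was 216 to 951 CPM in the control libraries and 69.8 to 184 CPM in the asthma libraries, whereas the HBEGF values of the classical monocytes overlapped between groups.

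AREG, amphiregulin, a ligand also made by immune cells, was spread more evenly over the classes. Dendritic cells had the highest mean, 56.5 ± 35.6 CPM (SD, n = 6), with 106, 27.3 and 32.3 CPM in control against 24.1, 55.1 and 93.6 CPM in asthma. These values rested on 76, 33 and 180 dendritic cells in control and on only 24, 10 and 26 in asthma. Monocytes followed with a mean of 37.5 ± 15.5 CPM and epithelial cells with 32.5 CPM. These 3 classes did not differ beyond the spread of their libraries. B cells ranged from 5.22 to 75.9 CPM, macrophages from 6.36 to 16.1 CPM, and T and NK cells had a mean of 2.91 CPM. Mast cells, a known source of AREG, gave 6 UMIs in the 13 cells of asthma replicate 11, 110 CPM, and none in asthma replicates 8 and 10.

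In the epithelium AREG was unevenly held by cells. AT2 cells had 20.6, 5.46 and 9.36 CPM in control (22, 1 and 1 UMIs) and 61.4, 79.2 and 39.2 CPM in asthma (32, 73 and 41 UMIs). These values rested on few cells: 11, 1 and 1 control cells and 8, 11 and 9 asthma cells had a UMI, and the top cell alone held 20, 27 and 21 UMIs in the asthma libraries. Without the 2 top cells of each library the levels were 11.6, 0 and 0 CPM in control against 18.3, 31.3 and 14.9 CPM in asthma. Control replicates 2 and 3 held 22 and 11 AT2 cells, of which 1 each had a UMI. The removal thus fixed both at 0, so the lack of overlap after it is no check for these libraries. The 9 measured macrophage markers summed to 60, 38.2 and 28.1 CPM in the control AT2 cells and to 107.5, 304.7 and 108 CPM in the asthma AT2 cells, with FABP4 the most abundant; their part in the AREG values was not tested. Stromal cells had 0, 2.47 and 1.05 CPM in control against 10.2, 3.66 and 11.5 CPM in asthma, too few UMIs to enter the test.

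TGFA, transforming growth factor alpha, was the rarest member. Granulocytes had the highest level, 60.1, 29 and 54.9 CPM in control (10, 12 and 5 UMIs) and 25.7, 16.7 and 26.9 CPM in asthma (7, 9 and 6 UMIs). The groups did not overlap, as for 4.02% of the tested granulocyte genes in that direction, but all 6 values rested on 49 UMIs, and the gene did not reach the count filter for a test in any class or subtype. B cells ranged from 0 to 20.1 CPM and epithelial cells from 0 to 9.8 CPM. AT1 cells of the asthma libraries had 19.1, 11.9 and 11.9 CPM, on 17 UMIs.

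BTC, betacellulin, was found in epithelial, mesothelial and stromal cells, with its highest mean over all libraries in epithelial cells. In control the means of these classes were close, at 17.3, 19 and 19.1 CPM. In asthma they were 41.6, 18.5 and 8.9 CPM. Epithelial cells had 17.6, 21 and 13.2 CPM in control against 58.1, 30.1 and 36.6 CPM in asthma. Mesothelial cells, the lining of the lung surface, had 10.9 to 31 CPM, and stromal cells had 15.1, 7.4 and 34.6 CPM in control against 14.2, 8.05 and 4.48 CPM in asthma. Immune classes held 0 to 7 UMIs each. Within the epithelium AT1 cells were highest, at 104, 95.4 and 89.5 CPM in asthma and 79.1 CPM in control replicate 1, the only control library with at least 10 such cells. AT2 cells had 15.9 to 28.8 CPM, below each of those AT1 values. Among stromal cells, endothelial cells of the larger vessels were highest, at 39, 18.6 and 97.8 CPM in control against 51.4, 43.9 and 26.6 CPM in asthma.

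EGFR, the receptor of all 5 ligands, was found in epithelial, mesothelial and stromal cells. Epithelial cells had 47, 77.2 and 85.7 CPM in control against 82.2, 51.3 and 58.3 CPM in asthma. Mesothelial cells came next at 11.3 to 45.7 CPM and stromal cells at 17.9 to 27.1 CPM, ranges that overlapped with each other but not with the epithelial range. The immune classes held at most 2 EGFR UMIs each, and macrophages, the class with the highest HBEGF, held 1 in 64025198 UMIs.

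Within the epithelium, basal cells (111 ± 12 CPM, SD, n = 5) and AT1 cells had the highest EGFR levels, with AT1 cells at 142, 107 and 155 CPM in asthma and 247 CPM in control replicate 1. These neighbours overlapped. AT2 cells were below them at 24.8 to 65.6 CPM, in the same range as club and secretory cells (25.6 to 43.3 CPM in the libraries with at least 10 cells). Of the stromal cells, fibroblasts had 23.5, 29.1 and 29.1 CPM in control against 34.6, 40.8 and 29.5 CPM in asthma. An unnamed stromal sub-cluster led by ITGA8, with 46 cells from the asthma libraries only, had higher values. Its EGFR level was 218, 325 and 128 CPM, on 4, 7 and 9 UMIs.

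ERBB3 was the most epithelial member. Epithelial cells had 116, 91.2 and 111 CPM in control against 228, 176 and 154 CPM in asthma, and mesothelial cells followed at 0 to 55.6 CPM, below the lowest epithelial library. AT1 cells had 353, 411 and 328 CPM in asthma and 188 CPM in control replicate 1. Club and secretory cells had 149 to 222 CPM, AT2 cells 87.3 to 142 CPM and basal cells 39.8 to 77.1 CPM, so that ERBB3 was low in the basal cells where EGFR was high. Outside the structural cells, classical monocytes held ERBB3 in 86 of 914 cells, with 29, 29 and 1 UMIs in control and 0, 6 and 50 UMIs in asthma.

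**Figure D3:**
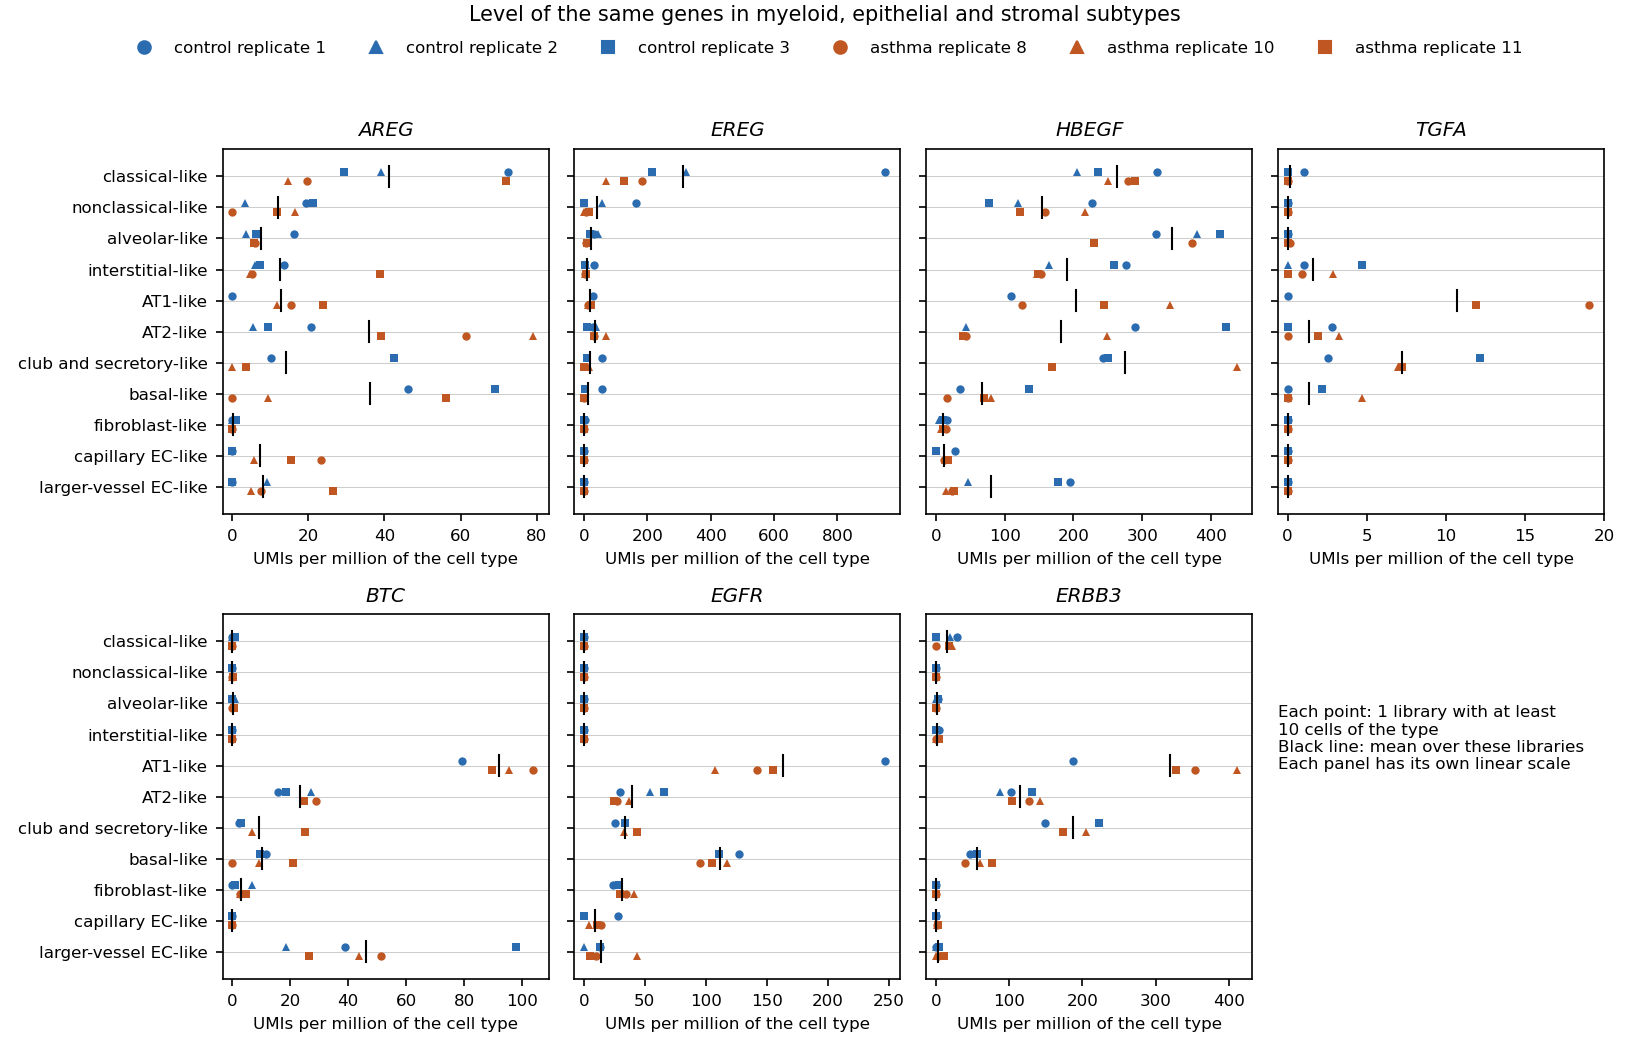
Level of each gene (UMIs per 1000000 of the cell type, a linear scale of its own in each panel) in 11 myeloid, epithelial and stromal subtypes, with 1 point per library with at least 10 cells (control blue, asthma orange) and a black line at their mean. BTC and ERBB3 had their highest means in AT1 cells, with BTC at 79.1 to 104 CPM there and at 15.9 to 28.8 CPM in AT2 cells, and EREG was highest in classical monocytes.

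Each member was placed among the other genes by its pattern over 31 named classes and subtypes. The points are not independent, since classes contain their subtypes and all come from the same 6 libraries, so the correlations are a description. ERBB3 was most like ESRP2, TSTD1 and EPCAM (Pearson's r 0.98 for each), of which ESRP2 is an epithelial splicing factor and EPCAM an epithelial adhesion molecule. EGFR was most like F3, the tissue factor of coagulation, LMO7 and its own partner receptor ERBB2 (r 0.96, 0.95 and 0.95). BTC was most like COBL, GABRE and TACC2 (0.89, 0.88 and 0.86). EREG was most like SERPINB10, SERPINB2, a plasminogen activator inhibitor, and BZW2 (0.85, 0.83 and 0.75). HBEGF was most like ALDH3B1, the lysosomal ceramidase gene ASAH1 and the lysosomal proton pump subunit gene ATP6V1B2 (0.86, 0.85 and 0.83). AREG had looser neighbours, PADI2, UNC93B1 and BCL11A (0.78, 0.73 and 0.70), and TGFA had ATG2A, MBD6 and REPS2 (0.83, 0.81 and 0.79). Between members, BTC and EGFR gave r 0.80, EREG and HBEGF 0.76, EGFR and ERBB3 0.75, and AREG and EREG 0.63.

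The comparison of asthma with control asked whether ligand or receptor transcription differed in the challenged lungs. UMIs were summed per library and cell type and tested with edgeR's quasi-likelihood test over all genes of the type, and a gene was called at an adjusted p under 0.05 with an absolute log2 fold change over 0.25. Values are asthma minus control on the log2 scale. The p-values weigh the difference between groups against the spread between animals, 1 library each. That spread was estimated for each gene with information shared over all genes of the type. Of 26 tests of members in 10 classes none was called, 7 had an unadjusted p under 0.05, and 17 of the 26 fold changes were below 0. DESeq2 on the same sums called 2, EREG in macrophages and HBEGF in stromal cells. The 7 were EREG in monocytes and macrophages, HBEGF in macrophages and stromal cells, BTC in epithelial and stromal cells, and ERBB3 in epithelial cells. Of all genes tested, 7.2% had such a p in monocytes and in epithelial cells, 5.64% in macrophages and 19.2% in stromal cells. The edgeR test called few genes of any kind: the share called was 0% of the tested genes in T and NK cells, dendritic cells, epithelial cells, granulocytes, macrophages, mesothelial cells and monocytes, 0.0158% in B cells, 0.0903% in plasma cells and 1.99% in stromal cells. In 15 subtypes none of 25 tests was called, 5 had an unadjusted p under 0.05, and DESeq2 called 2. The share of all genes called by edgeR in these subtypes was at most 0.553%, the value in fibroblasts, with 0.0391% in basal cells and 0.0232% in nonclassical monocytes. The 5 were AREG in AT2 cells, EREG in alveolar macrophages and classical monocytes, and HBEGF in interstitial macrophages and larger-vessel endothelial cells, where 5.14%, 4.72%, 4.7%, 5.05% and 5.12% of all genes had such a p.

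EREG had the largest differences among the ligands in immune cells. In monocytes the mean was 360 ± 275 CPM in control against 73.1 ± 24.2 CPM in asthma (SD, n = 3 each), with a log2 fold change of -2.34 (SE 0.48), an unadjusted p of 0.000649 and an adjusted p of 0.358 by edgeR, so it did not pass over the 7388 genes tested. Every asthma library was below every control library, as for 4.11% of the genes tested in monocytes. Classical monocytes made up 61.4%, 53.3% and 74.9% of the monocytes in control and 31.1%, 43.2% and 45.3% in asthma, also without overlap; within them EREG was lower in value as well, as given below. The DESeq2 adjusted p was 0.0821. In macrophages the means were 55.9 ± 45.2 and 9.71 ± 3.56 CPM, the log2 fold change was -2.62 (SE 0.61) and the edgeR adjusted p was 0.725, whereas DESeq2, which called 0.371% of genes there, called it at an adjusted p of 0.000703. The groups did not overlap there either, as for 2.18% of genes in the same direction.

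Of the 3 subtypes where EREG was tested, AT2 cells gave 0.68 (edgeR adjusted p 0.882) and the myeloid subtypes gave values below 0. In classical monocytes the log2 fold change was -2.01 (SE 0.49, edgeR adjusted p 0.759, DESeq2 adjusted p 1), with no overlap between groups, as for 4.02% of genes in that direction. In alveolar macrophages, tested with 3 control and 2 asthma libraries, it was -1.96 (SE 0.42, edgeR adjusted p 0.95), and DESeq2, which called 0.205% of genes, called it at an adjusted p of 0.0179. All asthma libraries were below all control libraries, as for 3.77% of genes. edgeR called 0.0154% of the genes in classical monocytes and 0% in alveolar macrophages. Control replicate 1 weighed on these values: without it the log2 fold change was -1.51 in monocytes, -1.77 in macrophages and -1.11 in classical monocytes, with adjusted p 0.262, 0.997 and 0.462 by edgeR. The summed immediate-early genes were 15449, 12289 and 16463 CPM in the control monocytes and 14917, 15991 and 8555 CPM in the asthma monocytes, with overlapping groups. The 9 macrophage markers summed to 602, 303 and 286 CPM in control monocytes and to 711, 1678 and 593 CPM in asthma monocytes, and the 8 granulocyte markers to 6073, 9875 and 15504 CPM and to 1780, 6328 and 5143 CPM, led by S100A9. The part of these genes and cells in the EREG values was not tested.

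**Figure D4:**
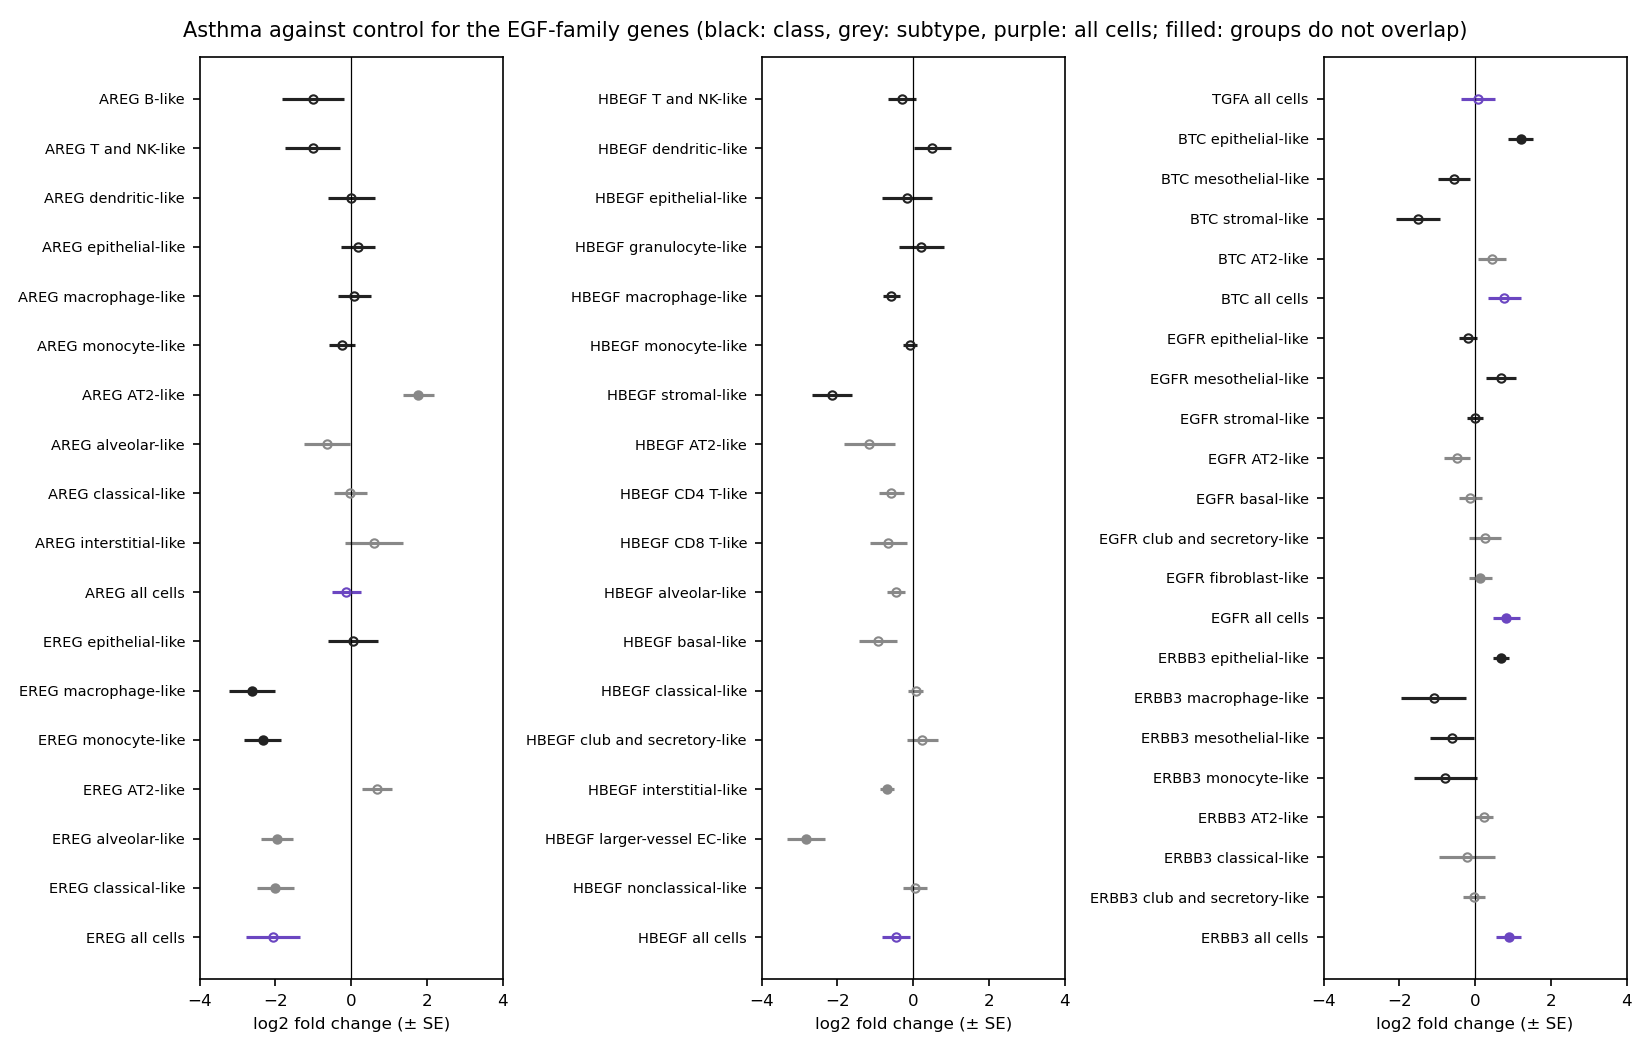
Log2 fold change, asthma minus control, of each member in each tested cell type, with bars of 1 SE on each side (black for classes, grey for subtypes, purple for all cells, filled points where the groups do not overlap). None was called by edgeR, and the values furthest below 0 were HBEGF in larger-vessel endothelial cells (-2.83) and EREG in macrophages (-2.62).

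Of the cell types where HBEGF was tested, the difference in value was largest in larger-vessel endothelial cells, the only endothelial subtype among them. Endothelial cells of larger vessels (270 cells) had 195, 46.5 and 177 CPM in control (45, 5 and 107 UMIs) and 23.1, 14.6 and 26.6 CPM in asthma (9, 3 and 5 UMIs). All asthma libraries were below all control libraries, as for 3.62% of the genes tested. The log2 fold change was -2.83 (SE 0.50), with an unadjusted p of 0.000166 and an adjusted p of 0.143 by edgeR, which called 0% of genes in these cells, and DESeq2, with 0.181% of genes called, called HBEGF at an adjusted p of 0.00419. A UMI was seen in 58.6%, 20% and 32.5% of the control cells and in 9.84%, 7.69% and 8.7% of the asthma cells. In control replicate 3, 2 cells held 69 of the 107 UMIs. Without the 2 top cells of each library the levels were 159, 11.4 and 65.4 CPM in control against 13.5, 5.36 and 11.3 CPM in asthma, and the groups then overlapped.

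In these endothelial cells the summed immediate-early genes were 13851, 5395 and 6423 CPM in control against 2844, 4124 and 5058 CPM in asthma, also without overlap, and their part in the HBEGF values was not tested. Across all stromal cells HBEGF was at 102, 14.8 and 66.6 CPM in control against 17, 11.7 and 18.9 CPM in asthma, a log2 fold change of -2.14 (SE 0.52, edgeR adjusted p 0.0787, DESeq2 adjusted p 0.00351, with 4.91% of genes called by DESeq2). Control replicate 2 was the low control library in both sets. Without it edgeR called HBEGF in stromal cells (adjusted p 0.0283, with 0.383% of genes called). The same held in larger-vessel endothelial cells (adjusted p 0.0241, with 0.0505% of genes called). In these endothelial cells the log2 fold change lay between -3.15 and -2.65 over the alternatives, with an edgeR adjusted p of up to 0.683. HBEGF could be tested there in 4 of the fits with 1 library left out. The stromal value was -1.66 without control replicate 1 (adjusted p 0.18) and -1.34 with mixed cells kept (adjusted p 0.0889), and the adjusted p was highest without asthma replicate 10, at 0.251. The make-up of the stromal cells differed as well: larger-vessel endothelial cells were 19.6%, 11.8% and 21.1% of them in control and 16.4%, 11.5% and 4.9% in asthma, and capillary endothelial cells 8.1%, 10.2% and 2.9% against 50.4%, 56.9% and 30.6%. An unnamed sub-cluster of 281 cells led by SOSTDC1 took 36.5%, 4.72% and 17.2% of the stromal cells in control against 2.41%, 1.77% and 15% in asthma, and held 20, 1 and 5 HBEGF UMIs (134, 52.5 and 37.7 CPM) in control against 0, 0 and 13 UMIs in asthma. The part of the make-up in the stromal value was not tested. Fibroblasts had 5.14 to 15.7 CPM of HBEGF, with overlapping groups.

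In macrophages the HBEGF difference was smaller, a log2 fold change of -0.57 (SE 0.22, edgeR adjusted p 0.861), and the groups overlapped. Interstitial macrophages gave -0.70 (SE 0.18, unadjusted p 0.00362, edgeR adjusted p 0.768) with no overlap, as for 3.2% of genes in that direction, in a subtype where edgeR called 0.0259% of genes. Their immediate-early sums were 17595, 10846 and 15327 CPM in control against 10068, 11921 and 6970 CPM in asthma. In monocytes the log2 fold change was -0.086, and AT2 cells gave -1.16 (unadjusted p 0.108) with overlapping groups, and between -2.57 (without asthma replicate 10) and -0.77 (without asthma replicate 11) with 1 library left out.

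Among the remaining ligands, AREG in AT2 cells and BTC in epithelial cells were higher in value in asthma. For AREG in AT2 cells the means were 11.8 ± 7.88 and 59.9 ± 20 CPM, with a log2 fold change of 1.77 (SE 0.41), an unadjusted p of 0.000884 and an adjusted p of 0.595 by edgeR. DESeq2 gave an adjusted p of 0.69. With 1 library left out the log2 fold change lay between 1.51 (without asthma replicate 10) and 3.1 (without control replicate 1). edgeR called 0.0163% of genes in AT2 cells, and 7.06% had all asthma libraries above all control libraries, as AREG had. In dendritic cells, the class with the highest AREG, the log2 fold change was 0.0012 and the groups overlapped. With 1 library left out this value lay between -0.80 and 0.84.

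BTC in epithelial cells had means of 17.3 ± 3.91 CPM in control against 41.6 ± 14.6 CPM in asthma, with a log2 fold change of 1.20 (SE 0.33, unadjusted p 0.00703, edgeR adjusted p 0.635). ERBB3 in the same cells had means of 106 ± 13.2 and 186 ± 37.7 CPM and a log2 fold change of 0.68 (SE 0.22, unadjusted p 0.0148, edgeR adjusted p 0.635). Neither group pair overlapped, as for 10.5% of the epithelial genes in that direction. Both genes were highest in AT1 cells, and AT1 cells made up 12.2%, 15.2% and 3.6% of the epithelial cells in control and 62.4%, 20.4% and 39.5% in asthma. Within AT2 cells alone, BTC gave 0.45 (unadjusted p 0.237, edgeR adjusted p 0.913) and ERBB3 gave 0.23 (edgeR adjusted p 0.945). The part of the cell make-up in the epithelial values was not tested further. In stromal cells BTC gave -1.50 (SE 0.58, unadjusted p 0.0291, edgeR adjusted p 0.203) with overlapping groups. It was -0.63 without control replicate 3 and -2.08 without asthma replicate 8. Larger-vessel and capillary endothelial cells, the latter with 0 BTC UMIs, took the shares of the stromal cells given above for HBEGF, and their part in this value was not tested.

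EGFR had no called difference within a cell type. The log2 fold change was -0.20 in epithelial cells, -0.0013 in stromal cells, 0.68 in mesothelial cells (unadjusted p 0.103) and 0.14 in fibroblasts, with edgeR adjusted p of 0.842, 0.998, 0.999 and 0.971. In fibroblasts the asthma libraries lay above the control libraries, as for 12.4% of genes, in a subtype where edgeR called 0.553%.

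Summed over all cells of a library, none of the 7 members was called, where edgeR called 0.0839% of 14306 genes, and DESeq2, which called 4.81% of genes, called EREG. Unadjusted p was under 0.05 for EREG and ERBB3 and for 12.9% of all genes. EGFR was at 3.68, 2.36 and 6.96 CPM in control against 9.05, 7.45 and 8.55 CPM in asthma (log2 fold change 0.82, SE 0.35, edgeR adjusted p 0.395). ERBB3 was at 8.28, 3.54 and 8.49 CPM and at 14.6, 11.9 and 15.1 CPM (0.89, SE 0.32, edgeR adjusted p 0.339). Both receptors had no overlap between groups, as for 15.9% of genes in that direction. EREG was at 95.5, 47.3 and 18.7 CPM and at 7.49, 11.2 and 25.7 CPM (-2.07, SE 0.71, edgeR adjusted p 0.313, DESeq2 adjusted p 0.0341), with overlap. With 1 library left out it lay between -2.70 (without asthma replicate 11) and -1.30 (without control replicate 1). In such sums more cells of a type and more RNA per cell cannot be told apart.

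The share of a member's UMIs that lay in each class describes which cells contributed most transcripts. Macrophages held on average 68.4% of the HBEGF UMIs, at 81.4%, 66.8% and 67.1% in control and 81.6%, 75% and 38.5% in asthma. Monocytes held 45.7% of the EREG UMIs on average, ranging from 8.86% in asthma replicate 10 to 77.5% in asthma replicate 11, and macrophages held 35%. Epithelial cells held 65.1% of the ERBB3 UMIs, 48.6% of the EGFR UMIs and 44.1% of the BTC UMIs. AREG was divided among macrophages (24.4%), mixed cells (22.2%), monocytes (19.9%) and other classes.

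The epithelial share of EREG was 1.91%, 0.859% and 1.75% in control and 10.6%, 21.1% and 6.43% in asthma, higher in all 3 asthma libraries. The dendritic share of AREG was 11.2%, 6.54% and 23.3% in control and 3.62%, 1.38% and 4.65% in asthma, and the stromal share of BTC 22%, 19.4% and 61.7% against 16.7%, 10.7% and 13.5%. The mesothelial share of EGFR was 13.4%, 10.3% and 6.28% in control and 39.6%, 41.9% and 4.61% in asthma, which overlapped. With a 2-sided exact permutation test (20 ways of assigning the libraries), 8 of 84 shares reached p = 0.1, the smallest p that 3 against 3 allows, and the adjusted p was 1 for every share. A share moves with the number of cells of every class and with the level of the gene in every class. For EREG the log2 fold change was 0.053 in epithelial cells, and between -0.56 and 0.999 with 1 library left out. It was -2.34 in monocytes and -2.62 in macrophages.

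**Figure D5:**
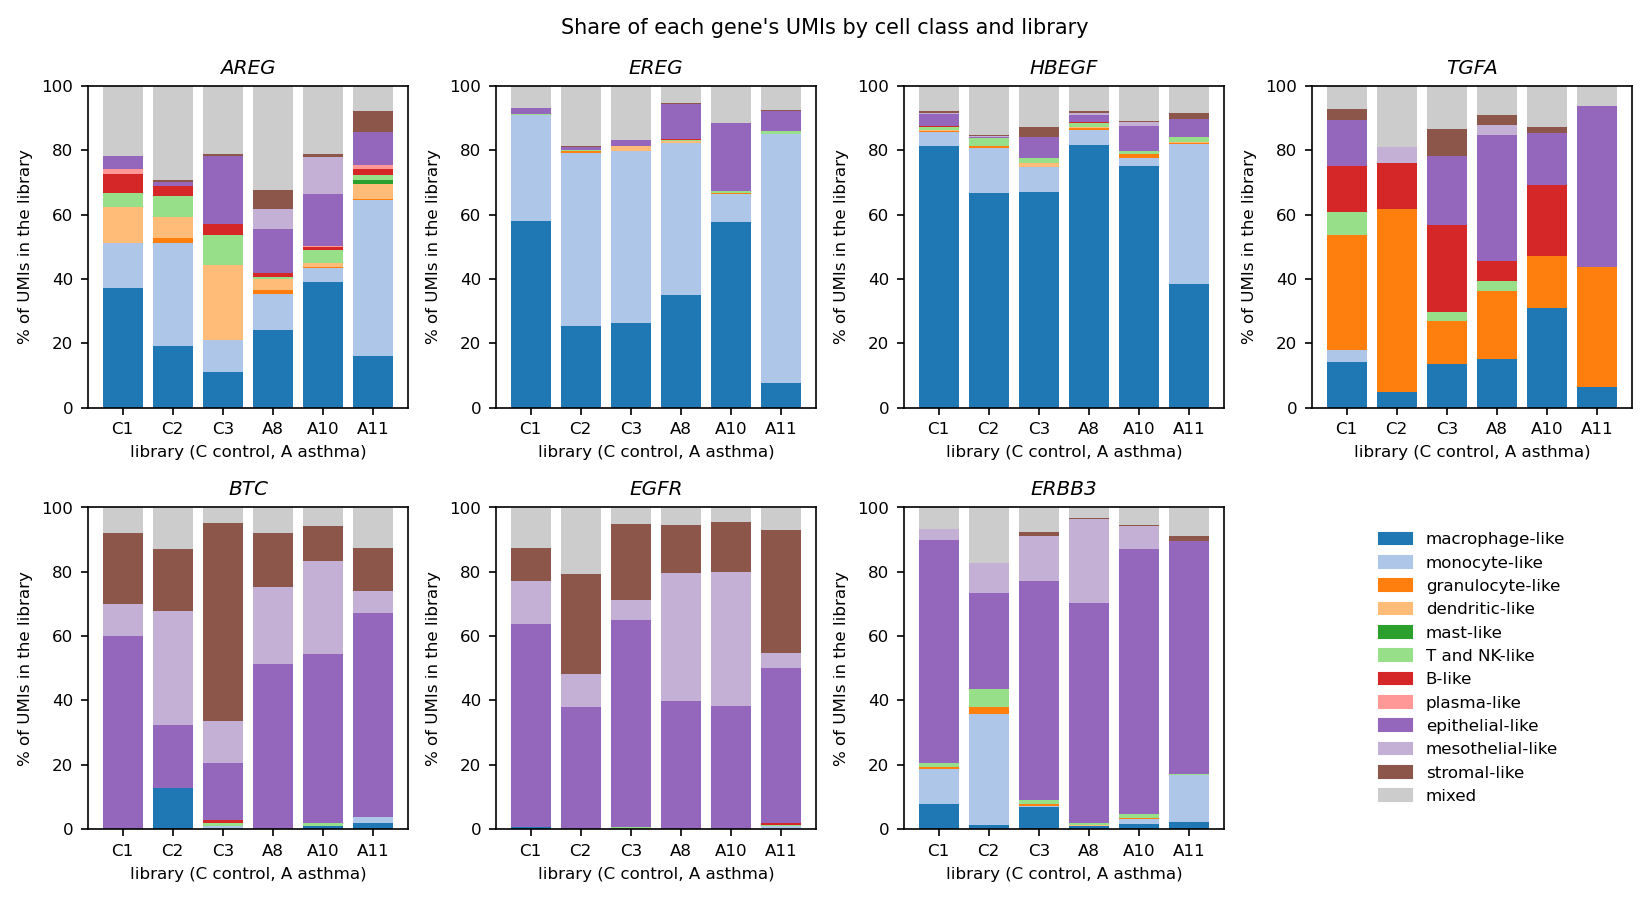
Share of each gene's UMIs (percent of the kept cells' UMIs of that gene) held by each cell class in each library (C control, A asthma), as stacked bars that start at 0, with mixed cells in grey. Macrophages held 38.5% to 81.6% of the HBEGF UMIs and epithelial cells 29.9% to 82.3% of the ERBB3 UMIs.

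The rest of the EGF system was described from lists of 70 genes. Of the other ligands, neuregulin 1 (NRG1), a ligand of ERBB3, was highest in classical monocytes (132 ± 26.3 CPM, SD, n = 6) and AT1 cells (105 ± 24 CPM, n = 4), and its levels in epithelial cells were 12.3, 14 and 40.4 CPM in control against 61.8, 18.4 and 28.3 CPM in asthma. EGF, EPGN, NRG3 and NRG4 gave 9, 21, 2 and 8 UMIs in all, and NRG2 gave 306. Of the receptors, ERBB2, the main partner of ERBB3, was at 63.5, 84.2 and 50.9 CPM in the control epithelial cells and at 130, 85.9 and 107 CPM in the asthma epithelial cells, and AT1 cells had 246 ± 63.5 CPM (n = 4). ERBB4 gave 35 UMIs in all. Mesothelial cells had ERBB2 at 77.4, 58.3 and 103 CPM in control against 51.6, 132 and 75.4 CPM in asthma, which overlapped with the epithelial range. Among the classes, HBEGF, EREG and NRG1 thus had their highest mean levels over all libraries in myeloid cells. BTC had its highest such mean in epithelial cells, where EGFR and ERBB3 were highest as well. In the control libraries alone the BTC mean was not highest in epithelial cells.

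Of the pathway genes tested in stromal cells, 50 of 70, edgeR called 1 as higher and 1 as lower in asthma, beside 1.16% and 0.828% of all genes. Both belong to the negative feedback list, of which 7 of 11 were tested. DUSP6, a phosphatase that switches off ERK, was at 113, 77.7 and 73.5 CPM in control and rose to 358, 225 and 246 CPM in asthma (log2 fold change 1.42, SE 0.26, edgeR adjusted p 0.0398). ERRFI1, an inhibitor of the EGFR kinase, was at 74.3, 51.8 and 72.9 CPM in control and fell to 25.5, 37.3 and 31 CPM in asthma (-1.34, SE 0.21, edgeR adjusted p 0.0272). The median log2 fold change over the 50 genes was -0.0098, beside 0.0064 over all genes tested, and 0 of the list genes were called in each of the other 9 classes. Both calls depended on single libraries. DUSP6 was called without asthma replicate 11 but not without any of the other 5 libraries (edgeR adjusted p 0.066 to 0.191) and not at a mitochondrial maximum of 10% (0.0809), and ERRFI1 was not called without control replicate 1 or 3 or asthma replicate 8 or 10 (0.0662 to 0.142).

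Neither gene was called within a stromal subtype. DUSP6 was highest in capillary endothelial cells, at 753, 302 and 414 CPM in control against 749, 372 and 669 CPM in asthma (log2 fold change 0.38), the subtype whose share of the stromal cells was higher in all 3 asthma libraries. In fibroblasts it was at 35.2, 36 and 55 CPM in control against 212, 40.8 and 72.2 CPM in asthma (1.23, SE 0.51, unadjusted p 0.0319, edgeR adjusted p 0.436), with overlapping groups. ERRFI1 in fibroblasts was at 102, 65.1 and 131 CPM in control against 53.3, 89.8 and 42.7 CPM in asthma (-0.89, SE 0.32, edgeR adjusted p 0.348). The part of the cell make-up in both calls was not tested.

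In epithelial cells, where 52 of the 70 genes were tested and none was called, the lists pointed different ways. All 19 tested immediate-early genes had fold changes below 0, with a median of -0.77 beside -0.012 for all genes, and 5 of them had an unadjusted p under 0.05. The 5 tested genes of ligand shedding all had fold changes above 0, with a median of 0.65. The summed immediate-early genes of the epithelial cells overlapped between groups, at 7205, 3388 and 16837 CPM in control against 4027, 7220 and 3580 CPM in asthma. Basal cells had the higher sums, at 24316 and 20735 CPM in control replicates 1 and 3 against 11033, 13475 and 8411 CPM in asthma, and they made up 69.1% of the epithelial cells in control replicate 3 and between 6.05% and 12.9% in the other libraries. Within basal cells the median was -0.78, with 14 of 16 genes below 0 and 9 at an unadjusted p under 0.05, beside a median of 0.0096 and 5.28% at such a p over all basal genes. It was -0.26 in club and secretory cells, with 10 of 15 genes below 0, and -0.061 in AT2 cells, with 8 of 13. The part of the cell make-up in the epithelial medians was not tested. In the other classes the median over the immediate-early genes ranged from -0.46 in B cells to 0.037 in mesothelial cells. Among the subtypes outside the epithelium the lowest medians were those of larger-vessel endothelial cells at -1.13 (11 of 12 genes below 0, 8 at an unadjusted p under 0.05), interstitial macrophages at -0.60 (18 of 19, 12 at that p) and CD8 T cells at -0.47 (16 of 18, 6 at that p). Over all genes of these subtypes the medians were 0.0023, -0.0015 and -0.0017, and 5.12%, 5.05% and 4.05% of genes had such a p. Medians were above 0 in fibroblasts, at 0.36 beside 0.0091 for all genes, and in capillary endothelial cells, at 0.38 beside 0.15.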

How the data were processed

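Lung cells of 6 male cynomolgus monkeys, 3 control and 3 asthma by the labels, were profiled by 10x 3′ sequencing, 1 library per animal. The authors deposited, for each library, a matrix of raw UMI counts over 28623 genes made with Cell Ranger. The sources name different versions of it, 2.1.1 in the submitters' processing notes, and the study aligned the reads to the macFas6 genome; the genes carry Ensembl identifiers. The strand setting of the counting was not given in the sources used here, and no normalized values were used.

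The filters kept barcodes with 500 to 5000 genes, no fewer than 500 UMIs and a mitochondrial share up to 25%. Cells were clustered with scanpy 1.11.5 and leidenalg 0.10.2 (2000 variable genes less the EGF genes, 10 components, resolution 0.8) and named from marker lists. Sub-clusters with markers of several classes were set aside by limits chosen after seeing the data, and doublets scored by simulation were kept in the main analysis. UMIs were summed per library and type (at least 10 cells, at least 2 libraries a group) and tested with edgeR 4.0.16 (TMM, filterByExpr, quasi-likelihood test, Benjamini-Hochberg adjustment over all genes of the type). The SE was taken as the absolute log2 fold change divided by the square root of F. DESeq2 1.42.0 was an alternative, with others on filters, normalization, clustering and single libraries. The test was checked on simulated data. Counting error and the spread between 3 animals a group limit the precision.

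The genes named are the 7 members in every type, the list genes called in a class, and the 3 genes most alike to each member. The members and lists were chosen with earlier results of these data known. JUN and MAP2K2 had no row under these symbols.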

Additional observations from a re-analysis of the deposited data

How the results depend on the processing

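No paired analysis was possible because the control and asthma libraries share no replicate number. The class with the highest mean level of each of the 7 members was the same under all 5 other selections of cells. The calls of members depended on the test: DESeq2 called 2 in the classes (EREG in macrophages, HBEGF in stromal cells), 2 in the subtypes (EREG in alveolar macrophages, HBEGF in larger-vessel endothelial cells) and 1 over all cells (EREG), where edgeR called 0, and edgeR without a filter on low counts called 3, 8 and 0, beside 0.794%, 0.753% and 0.21% of all genes tested in that fit. With 1 library left out, 0 to 1 members were called in the classes and 0 to 1 in the subtypes, HBEGF without control replicate 2 in both, and EREG in club and secretory cells without control replicate 3, a fit that leaves 1 control library with at least 10 cells and called 0.974% of genes. Such fits, also in basal cells and alveolar macrophages, assume that the lone library varies like the other group. The list genes called numbered 2 in the main analysis, 20 without the filter (0.794% of all genes in the classes), 1 at a mitochondrial maximum of 10%, and 0 to 4 with 1 library left out, 0 without control replicate 1, control replicate 3 or asthma replicate 8. EREG kept its direction in all alternatives in monocytes (-2.65 to -1.51), macrophages (-3.02 to -1.77) and classical monocytes (-2.36 to -1.11). The cause of these changes was not tested.

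Some log2 fold changes that were not called changed sign. AREG gave 0.029 over all cells and 0.0499 in classical monocytes, EGFR 0.25 in stromal cells and ERBB3 0.037 in club and secretory cells without TMM. In dendritic cells AREG gave -0.077 without the filter, -0.031 at 10% mitochondrial UMIs, -0.047 without doublets, -0.014 with mixed cells kept, -0.46 at resolution 1.6 and -0.51 with EGF genes among the variable genes. AREG also gave -0.39 in epithelial cells and 0.017 in monocytes at 10%, and -0.052 in macrophages at resolution 1.6. EREG in epithelial cells gave -0.011 by DESeq2, HBEGF in monocytes 0.093 with mixed cells kept, and EGFR in stromal cells 0.018 without the filter, 0.0403 without doublets and 0.00067 at resolution 1.6. With 1 library left out, AREG ranged from -2.21 to 0.10 in B cells, -0.41 to 0.30 over all cells, -1.02 to 0.13 in alveolar macrophages, -1.42 to 0.44 in classical monocytes, -0.80 to 0.84 in dendritic cells, -0.083 to 0.92 in epithelial cells, -0.15 to 0.66 in macrophages and -0.48 to 0.32 in monocytes. EGFR ranged from -0.11 to 0.059 in stromal cells, ERBB3 from -0.75 to 0.39 in classical monocytes, -0.26 to 0.23 in club and secretory cells and -1.69 to 0.0399 in mesothelial cells, and EREG from -0.56 to 0.999 in epithelial cells. HBEGF ranged from -0.59 to 0.11 in T and NK cells, -0.69 to 0.053 over all cells, -1.27 to 0.74 in basal (0.74 with 1 control library left), -0.067 to 0.28 in classical, -0.61 to 0.75 in club and secretory, -0.96 to 0.46 in epithelial, -0.31 to 1.26 in granulocytes, -0.24 to 0.13 in monocytes and -0.17 to 0.56 in nonclassical cells, and TGFA from -0.38 to 0.37 over all cells.

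The number of all genes called in a class moved too. DESeq2 called 468 in stromal cells, 76 in T and NK cells, 39 in macrophages, 19 in monocytes and 5 in epithelial cells, where edgeR called 190, 0, 0, 0 and 0. Without TMM edgeR called 430 in stromal cells and with mixed cells kept 92, and without the filter 645 in stromal cells and 192 in monocytes. With 1 library left out the stromal count was 51, 39 and 3 for control replicates 1, 2 and 3 and 58, 9 and 371 for asthma replicates 8, 10 and 11, so the share of 1.99% depends on single libraries. Members with few UMIs could not be tested in many cell types at this depth, TGFA in no class or subtype.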
